A study of Homo sapiens with 3 samples.

Results

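The end of the short arm of chromosome 11 is called 11p15.5 here, after the band at its tip, whose limits were not used. It was described through every H3K36me3 peak overlapping the first 3.5 Mb of the chromosome (hg19 positions 1 to 3500000). The DHT list had 263 such peaks of 131798 on nuclear chromosomes and the untreated list had 209 of 117564, so 472 peaks of 249362 were used. They came from chromatin immunoprecipitation sequencing (ChIP-seq) of LNCaP cells, a line grown from a human prostate cancer that responds to androgen. The DHT cells received 100 nM dihydrotestosterone (DHT, the most potent natural androgen) for 4 h in RPMI labelled red-free, and the others carry the label of no treatment. Both were kept in RPMI with 10% serum and were precipitated with the same Abcam antibody. Medium and hormone cannot be told apart as the source of a difference, because the untreated label names no such medium. Each condition had 1 library, so no test was possible, and the intervals below cover counting error only and treat peaks as independent. An input library is also labelled and was not analysed here. The files hold no marker measurements against which the cell line could be checked.

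Trimethylation of lysine 36 of histone H3 is laid down along gene bodies by an enzyme that travels with elongating RNA polymerase II, so it marks transcribed sequence. Band 11p15.5 opens with a dense run of genes, many of them small and broadly expressed, followed by secreted gel-forming mucins. Farther in are a pair of neighbouring imprinted domains, in which some genes are read mainly from the copy inherited from 1 parent. In the first, H19, a noncoding RNA, is read from the maternal copy and IGF2, a fetal growth factor, from the paternal copy. In the next, the long antisense RNA KCNQ1OT1 is read from the paternal copy within KCNQ1, a potassium channel gene, and CDKN1C, an inhibitor of cyclin-dependent kinases, from the maternal copy. Androgen acts through its receptor, a transcription factor that binds DNA once it holds the hormone.

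No hg19 gene positions were at hand, so peaks were placed by hg19 position and genes by their order in the RefSeq table of GRCh38.p14. Ahead of MUC6, the first mucin gene, that table lists 44 protein-coding genes from SCGB1C1 to AP2A2, leaving out provisional LOC entries and olfactory receptor genes of the OR8U group. They include RIC8A, SIRT3 (a mitochondrial deacetylase), PSMD13 (a proteasome subunit), DEAF1 (a transcription factor), TALDO1 (transaldolase of the pentose phosphate pathway), RPLP2 (a ribosomal protein), CD151 (a tetraspanin) and POLR2L (an RNA polymerase subunit). Those named do not stand for all 44, which also include NLRP6, IFITM5, CDHR5, SCT and DRD4. The 4 mucins MUC6, MUC2, MUC5AC and MUC5B follow AP2A2. From H19 to TH the table has 4 protein-coding entries, IGF2, INS-IGF2, INS and TH, and from KCNQ1 to CDKN1C only those 2.

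To show sequence from the 4 intervals compared below, the promoter of 1 gene of each is printed, from RefSeq with build GRCh38.p14. The genes are AP2A2, an adaptor subunit of clathrin-mediated endocytosis, MUC2, a gel-forming mucin of the intestine, H19, and KCNQ1DN, a noncoding RNA listed between KCNQ1 and CDKN1C. Each runs 5′ to 3′ on the gene's strand over 300 bases, 250 before the start and 50 after it, with CpG dinucleotides in capitals. These GRCh38.p14 positions are not on the scale of the hg19 peak positions. They are chr11:925620-925919 on the plus strand for AP2A2, chr11:1074624-1074923 on the plus strand for MUC2, chr11:2001217-2001516 on the minus strand for H19 and chr11:2869783-2870082 on the plus strand for KCNQ1DN.
AP2A2: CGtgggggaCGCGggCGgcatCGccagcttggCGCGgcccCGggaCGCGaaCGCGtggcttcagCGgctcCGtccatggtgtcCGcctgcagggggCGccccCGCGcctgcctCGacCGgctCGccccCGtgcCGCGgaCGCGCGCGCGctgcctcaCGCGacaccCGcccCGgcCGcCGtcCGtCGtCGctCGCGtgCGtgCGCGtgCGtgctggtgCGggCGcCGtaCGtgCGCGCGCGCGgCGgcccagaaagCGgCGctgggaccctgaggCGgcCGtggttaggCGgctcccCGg
MUC2: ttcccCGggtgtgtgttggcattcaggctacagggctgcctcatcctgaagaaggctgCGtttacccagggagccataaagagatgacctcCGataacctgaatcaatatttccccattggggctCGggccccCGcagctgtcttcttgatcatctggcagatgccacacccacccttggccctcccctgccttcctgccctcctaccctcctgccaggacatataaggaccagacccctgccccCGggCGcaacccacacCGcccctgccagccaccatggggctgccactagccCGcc
H19: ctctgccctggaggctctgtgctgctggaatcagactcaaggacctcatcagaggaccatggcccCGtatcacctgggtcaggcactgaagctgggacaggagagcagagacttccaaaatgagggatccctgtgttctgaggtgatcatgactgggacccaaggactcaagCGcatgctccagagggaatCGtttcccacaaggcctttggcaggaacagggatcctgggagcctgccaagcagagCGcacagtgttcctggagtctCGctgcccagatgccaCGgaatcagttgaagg
KCNQ1DN: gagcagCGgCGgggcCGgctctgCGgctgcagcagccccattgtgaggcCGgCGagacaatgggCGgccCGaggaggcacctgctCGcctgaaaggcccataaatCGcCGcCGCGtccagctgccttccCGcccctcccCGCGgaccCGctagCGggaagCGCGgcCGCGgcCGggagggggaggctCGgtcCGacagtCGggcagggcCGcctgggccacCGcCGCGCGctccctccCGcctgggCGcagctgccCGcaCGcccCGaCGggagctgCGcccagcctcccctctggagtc
The AP2A2 promoter holds 60 CpG and the KCNQ1DN promoter 38, against 9 for MUC2 and 6 for H19. The median over all 35116 promoters in the table is 14. Promoters of the genes from SCGB1C1 to AP2A2, 47 for 34 genes, have a median of 32 CpG and 70.7% G+C. Only 0.0911% of all promoters hold at least as many CpG as that of AP2A2, so it is not typical of these 47. For H19 to TH, 3 promoters have a median of 7 CpG and 63.0% G+C. For KCNQ1 to CDKN1C the median of 2 promoters is 20.5 CpG, so that of KCNQ1DN is not typical of both, and for the mucins that of MUC2 is the 1 promoter matched. These counts describe sequence, and no peak was assigned to a promoter.

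H3K36me3 peaks covered 8.85% of the 3.5 Mb after DHT and 5.82% in untreated cells. In kilobases this was 310 kb after DHT and 204 kb in untreated cells, a ratio of 1.52 (95% counting interval 1.18 to 1.95). Over all nuclear chromosomes the same ratio was 1.03 (1.01 to 1.04). On chromosome 11 beyond 3.5 Mb, 2.46% was covered after DHT and 2.44% in untreated cells, a ratio of 1.01 (0.957 to 1.06). The counting interval at the chromosome's end does not meet that of the rest of chromosome 11. Peak number differed less, with a ratio of 1.26 (1.05 to 1.52) at the end, against 1.12 over all nuclear chromosomes. Peaks ran from 132 to 7885 bp after DHT and from 145 to 5381 bp in untreated cells, with medians of 682 bp after DHT and 666 bp in untreated cells. Those medians exceed the 354 bp of the whole DHT list and the 374 bp of the whole untreated list.

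Coverage was uneven along the 35 windows of 100 kb. A DHT peak was present in 34 windows and an untreated peak in 29. The first window held none of either library, and the first 189794 bp of the chromosome had no peak. Of the other windows, 30 were more covered after DHT, 5 of these without any untreated peak, and 4 were less covered. Windows merely more or less covered were not counted over the genome, so 30 against 4 cannot be set against a share there. Over the genome, DHT peaks alone were present in 13.2% of 19726 windows with a peak, and untreated peaks alone in 11.1%. Across the 35 windows the libraries ranked the sequence alike (Pearson r = 0.948, Spearman rho = 0.955, a description of windows that share 2 libraries).

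**Figure D1:**
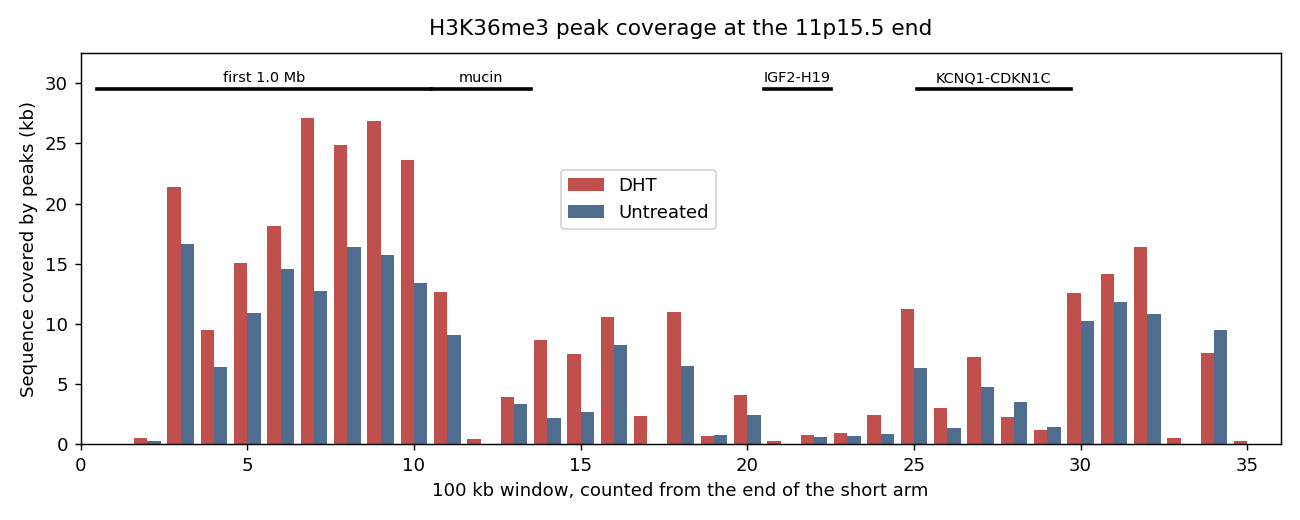
Bars give the kilobases covered by H3K36me3 peaks in each 100 kb window, counted from the end of the short arm, after DHT (left bar) and in untreated cells (right bar), 1 library each. Windows 7 to 10 reach 23.6 to 27.1 kb after DHT and 12.7 to 16.4 kb in untreated cells, while both windows of the IGF2-H19 interval stay under 1 kb.

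By the fold used here, a window counted as different at 1.5-fold, where at least 10 kb was covered in either library. Of the 14 windows at 11p15.5 that qualified, 7 (50%) were higher after DHT and 0 lower, against 14.4% higher and 5.38% lower of the 2195 windows that qualified over the genome. At 2-fold, 1 of 14 was higher and 0 lower, against 4.15% and 0.592% over the genome. With 5 kb as the minimum, 10 of 19 were higher and 0 lower, against 12.1% and 7.8%. Windows starting 50 kb later gave 8 of 14 higher and 0 lower, against 14% and 5.08%. Among peaks with a score of at least 100, a limit chosen after seeing the data, 3 of 7 were higher and 37.6% of windows over the genome were, so the separation from the genome was smaller there. The median ratio of the 14 was 1.45, with a range of 1.20 to 2.13, against a median of 1.03 over qualifying windows of the genome that had peaks of both libraries. The window from 600001 to 700000 differed most, with 27112 bp covered after DHT and 12714 bp in untreated cells. Its difference of 14.4 percentage points ranked 5th among 30940 windows of the genome. The window from 800001 to 900000 held 26864 bp after DHT and 15743 bp in untreated cells, that from 900001 to 1000000 held 23609 bp after DHT and 13376 bp untreated, and that from 700001 to 800000 held 24876 bp after DHT and 16388 bp untreated. These 4 adjoining windows form an unbroken run to the end of the first megabase. They and the window from 200001 to 300000 are the 5 most covered after DHT, each to at least 20%, a level that 0 windows of the 3.5 Mb reached in untreated cells. Over the genome 176 windows reached it after DHT and 120 in untreated cells. The other 3 windows past the fold were scattered: 1700001 to 1800000, 2400001 to 2500000 and 3100001 to 3200000, at ratios of 1.70, 1.79 and 1.52.

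**Figure D2:**
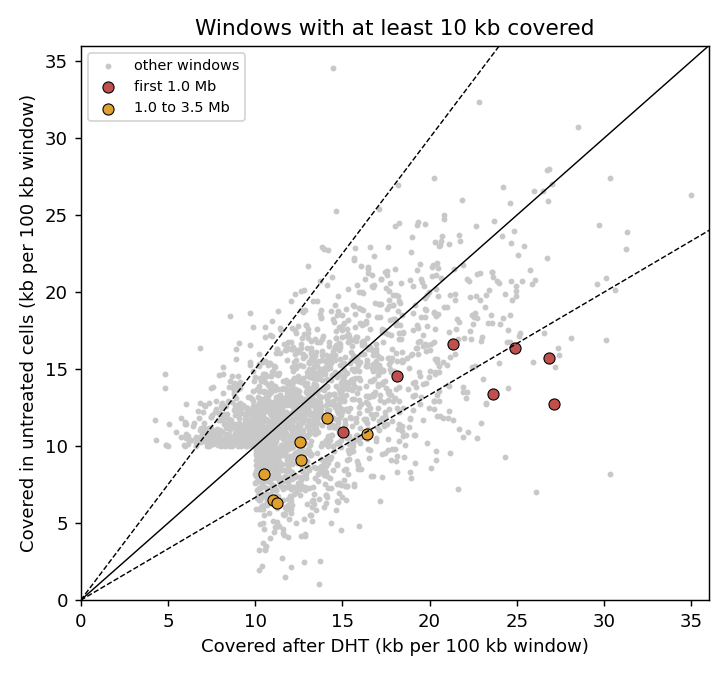
Each point is a 100 kb window in which peaks of 1 or both libraries cover 10 kb or more, by kilobases covered after DHT (x axis) and in untreated cells (y axis). The solid line marks equal coverage and the dashed lines 1.5-fold. All 14 coloured 11p15.5 windows lie on the DHT side of the solid line, 7 of them beyond the dashed line.

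The first 1.0 Mb carried the most mark. Its coverage was 16.7% after DHT and 10.7% in untreated cells, from 103 peaks after DHT and 81 in untreated cells. It makes up 28.6% of the 3.5 Mb but held 53.9% of the covered sequence after DHT and 52.5% in untreated cells, and 56.8% of the excess after DHT. Within it, the stretch from 0.6 to 1.0 Mb was covered to 25.6% after DHT and 14.6% in untreated cells, a ratio of 1.76 (1.04 to 2.98). The stretch from 0.2 to 0.6 Mb was covered over 63991 bp after DHT and 48510 bp in untreated cells, a ratio of 1.32 (0.770 to 2.26). The counting intervals of the 2 ratios overlap widely, so a difference between these stretches, which were drawn after the windows had been seen, was not resolved.

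The 3 widest peaks of the first 1.0 Mb lay at different places in the libraries. After DHT they were chr11:897415-905299 (7885 bp, score 110), chr11:606522-613626 (7105 bp, score 89.2) and chr11:882445-888789 (6345 bp, score 79.0). Untreated peaks covered 28.9%, 36.8% and 42.5% of these. In untreated cells the widest were chr11:836196-841576 (5381 bp, score 217), chr11:209443-214016 (4574 bp, score 113) and chr11:971333-975560 (4228 bp, score 65.0). DHT peaks covered 100%, 76.4% and 70.4% of these. The scores are the authors' own and rank peaks within 1 list only. By score, the libraries picked out some of the same places: the highest in the first 1.0 Mb was chr11:811186-813221 after DHT (score 500) and chr11:811362-814254 in untreated cells (score 642). A further pair ranked in the top 3 of both, chr11:562405-564657 after DHT (score 422) and chr11:562619-564721 in untreated cells (score 275). The remaining ones were chr11:398794-399290 after DHT (score 403) and chr11:252344-254438 in untreated cells (score 411), and peaks of the other library covered 98.6% and 91.0% of these. The strongest peaks thus coincided. Less than 50% of each of the 3 widest DHT peaks was covered in untreated cells, but they were picked for width after DHT, which favours partial cover. The 4th widest DHT peak, chr11:835880-841704 (5825 bp), was 92.4% covered and holds the widest untreated peak.

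When peaks of either library were linked across spaces of up to 5 kb, 146 blocks resulted, and 23 of them reached 10 kb. All 23 held peaks of both libraries, 18 of them with more sequence covered after DHT and 5 with less. In the first 1.0 Mb the longest block, chr11:756170-781109, was covered alike, over 12131 bp after DHT, with 11709 bp in untreated cells. The block holding the widest peak, chr11:894126-905299, was covered over 9782 bp after DHT and 2275 bp in untreated cells. Block chr11:981405-994561 was covered over 6972 bp after DHT and 1921 bp in untreated cells, and block chr11:600999-622873 over 9690 bp after DHT and 3785 bp in untreated cells. Of the 40 blocks of the first 1.0 Mb with peaks of both libraries, 33 were more covered after DHT and 7 less, at ratios of 0.430 to 4.30. Blocks with peaks of a single library, 40 of DHT and 15 of untreated cells, were short, at most 4797 bp for DHT and 3039 bp for untreated cells. Blocks were not counted over the genome, where the DHT list is also the longer, at 131798 peaks against 117564. These block counts therefore cannot be set against a share over the genome.

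**Figure D3:**
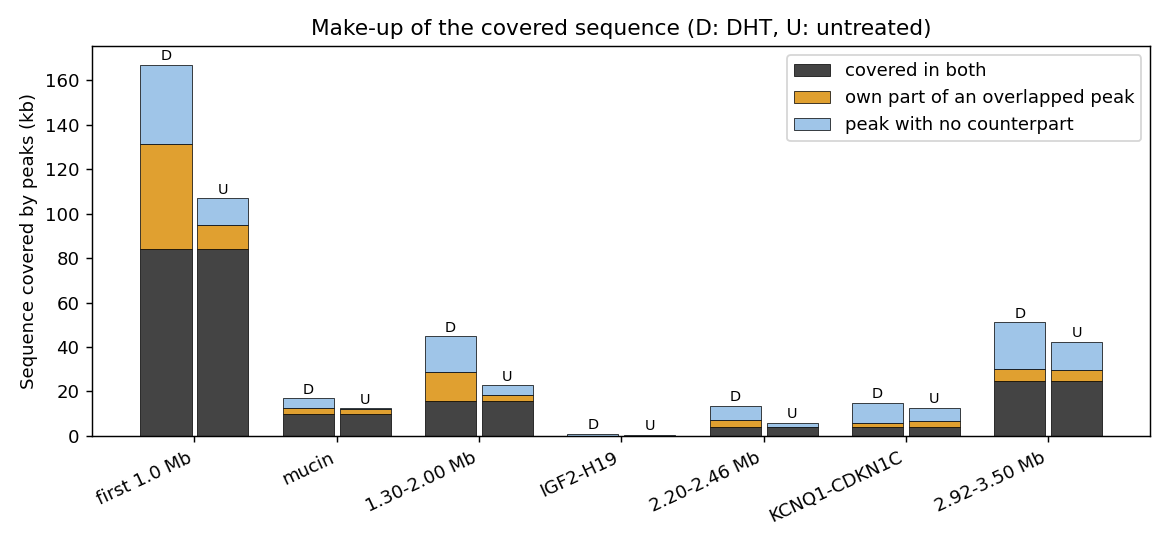
Stacked bars split the kilobases covered in each interval into sequence covered in both libraries, the library's own part of peaks that overlap a peak of the other, and peaks with no counterpart, for DHT (D, left) and untreated cells (U, right). In the first 1.0 Mb the own part of overlapped peaks is 47.5 kb after DHT and 10.9 kb in untreated cells.

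The excess after DHT lay both in peaks that met an untreated peak and in peaks with no counterpart. Over the 3.5 Mb, 142 kb was covered in both libraries. Peaks that met a peak of the other library held a further 73.9 kb of their own after DHT and 23.4 kb in untreated cells. Peaks with no counterpart held 93376 bp after DHT, from 124 peaks, and 38036 bp in untreated cells, from 74 peaks. Of the DHT excess of 106 kb, 50.4 kb thus lay in overlapped peaks and 55.3 kb in peaks alone. In the first 1.0 Mb the order was the other way, with 36.6 kb in overlapped peaks and 23.5 kb in peaks alone. Over all nuclear chromosomes the own part of overlapped peaks was 9.46% of covered sequence after DHT and 17.0% in untreated cells. At 11p15.5 the corresponding shares were 23.9% after DHT and 11.5% in untreated cells. In the first 3.5 Mb of chromosome 16 they were 20.3% after DHT and 11.9% in untreated cells. In the first 3.5 Mb of chromosome 19 they were 25.3% after DHT and 7.21% in untreated cells. Peaks with no counterpart held 42.1% of covered sequence after DHT and 33.3% in untreated cells over all nuclear chromosomes, against 30.2% after DHT and 18.7% in untreated cells at 11p15.5. Such peaks held 30.3% after DHT and 18.6% in untreated cells at the chromosome 16 end. At the chromosome 19 end they held 30.07% after DHT and 25.3% in untreated cells. The DHT shares were thus not particular to 11p15.5, while the untreated shares of chromosome 19 lay farther from it.

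The widths of matching peaks also differed between the chromosome's end and the genome. A matching pair was a DHT and an untreated peak that overlapped each other and no further peak. In the first 1.0 Mb the DHT peak was the wider in 40 of 58 pairs, or 69.0% (95% Wilson interval 56.2% to 79.4%), with median widths of 1628.5 bp after DHT and 985.5 bp in untreated cells. Over all nuclear chromosomes it was the wider in 36.5% of 55084 pairs (36.1% to 36.9%), and beyond 3.5 Mb on chromosome 11 in 33.7% of 2599 pairs (31.9% to 35.5%). In the rest of the 11p15.5 sequence it was the wider in 28 of 58 pairs, or 48.3% (35.9% to 60.8%). The DHT peak was at least 2-fold wider in 12 of the 58 pairs of the first 1.0 Mb, and the untreated peak in 1. Over all nuclear chromosomes these counts were 1631 for DHT and 5297 for untreated peaks, of 55084 pairs. In the first 3.5 Mb of chromosome 16 they were 21 for DHT and 11 for untreated peaks, of 168 pairs. For chromosome 19 they were 27 for DHT and 2 for untreated peaks, of 133 pairs, so this lean was not particular to 11p15.5. The rest of the 11p15.5 sequence was mixed. There the DHT peak was the wider in 10 of 15 pairs from 1.3 to 2.0 Mb and 2 of 2 from 2.2 to 2.46 Mb. It was the wider in 2 of 4 pairs of the mucin interval, 3 of 8 of the KCNQ1-CDKN1C interval and 11 of 29 from 2.92 to 3.5 Mb. Matching peaks were thus mostly wider after DHT in the first 1.0 Mb, though not only there, and mostly narrower over the genome.

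The mucin interval, 1.0 to 1.3 Mb, was marked mainly at its edge towards the first megabase. In all, 5.64% was covered after DHT and 4.13% in untreated cells, from 10 peaks after DHT and 8 in untreated cells, a ratio of 1.37 (0.401 to 4.65). The first 30 kb alone held 12141 bp after DHT and 8834 bp in untreated cells, which is 40.5% of that stretch after DHT and 29.4% in untreated cells. From 1.03 to 1.3 Mb, 1.77% was covered after DHT and 1.32% in untreated cells. The edge peaks were wide: chr11:1009585-1014622 (5038 bp, score 154), chr11:1023776-1026885 (3110 bp, score 60.6, no untreated counterpart) and chr11:1000974-1003652 (2679 bp, score 223) after DHT. In untreated cells they were chr11:1000556-1003764 (3209 bp, score 60.3), chr11:1009548-1012725 (3178 bp, score 169) and chr11:1016203-1018649 (2447 bp, score 194). The longest block wholly inside the interval, chr11:1009548-1018649, was covered over 6352 bp after DHT and 5625 bp in untreated cells.

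Past that edge the mucin interval was sparse in both libraries. A stretch of 70096 bp, chr11:1142670-1212765, had no peak of either, and the longest stretch without an untreated peak was 122856 bp. A peak at chr11:1212766-1213725 after DHT (960 bp, score 144) met a pair of untreated peaks, the stronger at chr11:1212771-1213257 (487 bp, score 149). At the far side, block chr11:1297001-1315399 crossed out of the interval and was covered over 9161 bp after DHT and 3442 bp in untreated cells. The mucin genes are active mainly in mucus-secreting epithelia, and peaks were not assigned to them.

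**Figure D4:**
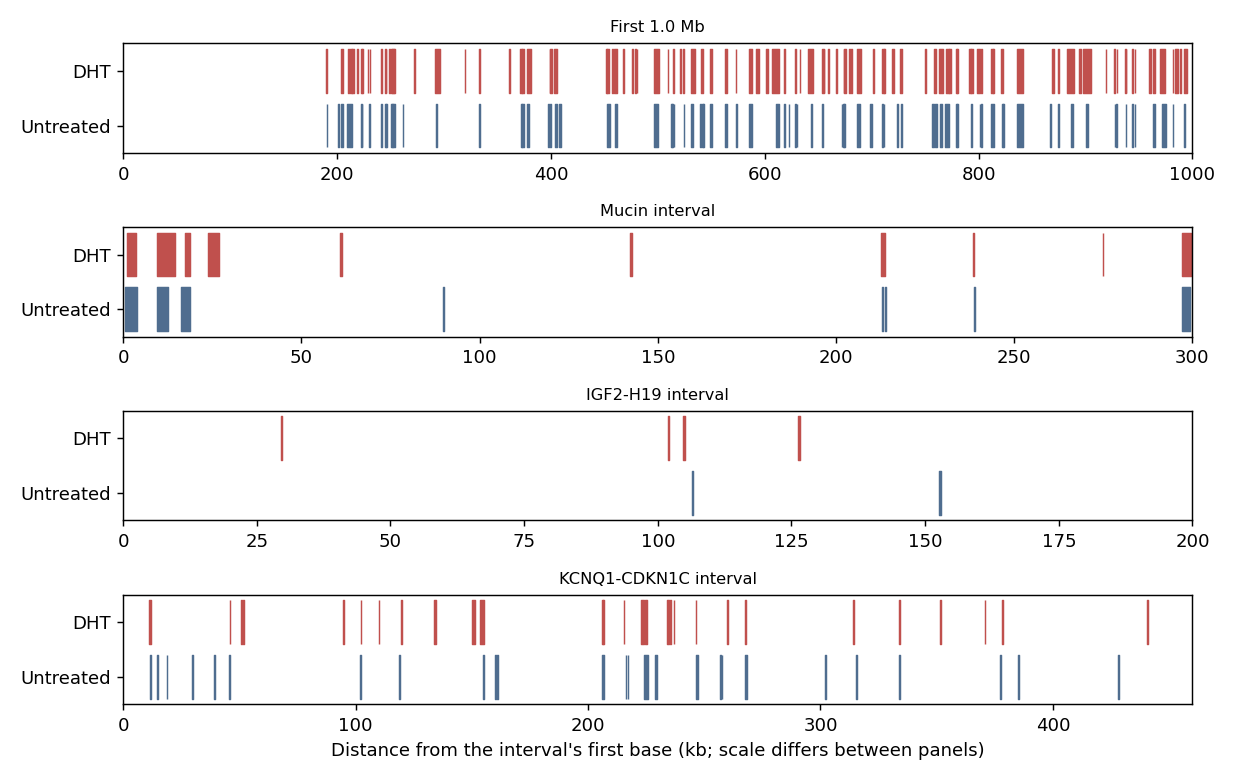
Each block is 1 peak, placed by distance in kb from the first base of its interval, with DHT peaks above untreated peaks. The first 1.0 Mb is filled from about 190 kb onward, the mucin interval mainly at its edges, the IGF2-H19 interval by 4 DHT and 2 untreated peaks, and the KCNQ1-CDKN1C interval by small scattered peaks.

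The IGF2-H19 interval, 2.0 to 2.2 Mb, was nearly bare. Its coverage was 0.535% after DHT and 0.285% in untreated cells, the lowest of the 7 intervals in both libraries. The 4 DHT peaks were chr11:2029529-2029801 (273 bp, score 54.5), chr11:2101922-2102053 (132 bp, score 140), chr11:2104735-2105061 (327 bp, score 50.3) and chr11:2126245-2126583 (339 bp, score 56.5). The 2 untreated peaks were chr11:2106317-2106531 (215 bp, score 68.7) and chr11:2152641-2152995 (355 bp, score 61.2). No peak of one library overlapped a peak of the other, the only interval of the 7 for which this held. All but the 132 bp peak, the narrowest DHT peak of the 3.5 Mb, scored below the median of their list, 85.7 after DHT and 81.2 in untreated cells. The ratio of covered length, 1.88 (0.324 to 10.9), has an interval too wide to give a direction. The longest stretch with no peak of either library was chr11:2029802-2101921, 72120 bp. The longest block, chr11:2101922-2106531, was covered over 459 bp after DHT and 215 bp in untreated cells. A list of peaks shows only where a threshold was passed, so low levels of the mark on IGF2 or H19 were not detectable here.

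The KCNQ1-CDKN1C interval, 2.46 to 2.92 Mb, carried many small, scattered peaks. There were 28 after DHT and 26 in untreated cells, with median widths of 402.5 bp after DHT and 384.5 bp in untreated cells, and none of 2 kb or more in either library. Peaks per Mb were 60.9 after DHT and 56.5 in untreated cells, against 75.1 after DHT and 59.7 in untreated cells over the 3.5 Mb. Coverage was only 3.27% after DHT and 2.78% in untreated cells, a ratio of 1.17 (0.626 to 2.20). In the higher-scoring 50% of each list the ratio was 0.776, and with peaks joined across 5 kb it was 0.866, so its direction was not stable. Wide peaks were absent here, whereas in the first 1.0 Mb peaks of at least 2 kb held 58.8% of covered sequence after DHT and 47.4% in untreated cells. Over all nuclear chromosomes such peaks held 12.7% of covered sequence after DHT and 14.0% in untreated cells. They numbered 2700 of 131798 peaks after DHT and 3036 of 117564 in untreated cells, so their absence among 28 and 26 peaks says little.

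Fewer peaks recurred between the libraries in the KCNQ1-CDKN1C interval than in the first 1.0 Mb. An untreated peak overlapped 10 of the 28 DHT peaks, or 35.7% (20.7% to 54.2%), and a DHT peak overlapped 9 of the 26 untreated peaks, or 34.6% (19.4% to 53.8%). In the first 1.0 Mb the shares were 66.0% of DHT peaks (56.4% to 74.4%) and 79.0% of untreated peaks (68.9% to 86.5%), and these intervals do not meet those of the KCNQ1-CDKN1C peaks. Over all nuclear chromosomes the shares were 48.5% of DHT peaks and 52.3% of untreated peaks, which lie inside the KCNQ1-CDKN1C intervals, so that interval was not set apart from the genome. Median peak widths in the first 1.0 Mb were 1088 bp after DHT and 955 bp in untreated cells, and the part of width in this difference was not tested. Among the 8 matching pairs the DHT peak was the wider in 3. The direction along the interval was mixed. Up to 2.7 Mb, 11236 bp was covered after DHT and 7831 bp in untreated cells. From 2.7 Mb on, peaks covered 3789 bp after DHT and 4968 bp in untreated cells.

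The highest-scoring peaks of the KCNQ1-CDKN1C interval met a peak of the other library. At chr11:2684487-2685364 (878 bp, score 147 after DHT) lay the highest-scoring DHT peak, wholly inside the widest untreated peak, chr11:2684124-2685727 (1604 bp, score 122). The next DHT peak by score, chr11:2666059-2666403 (345 bp, score 146), was also wholly covered by an untreated peak. The widest DHT peak, chr11:2613669-2615170 (1502 bp, score 145), was covered over 36.8% of its width. The highest-scoring untreated peak was chr11:2561775-2562440 (666 bp, score 134), covered over 253 bp by a DHT peak. The longest block, chr11:2682841-2697182, was covered over 3629 bp after DHT and 2344 bp in untreated cells, which is 25.3% of its length after DHT and 16.3% in untreated cells. By contrast the longest block of the first 1.0 Mb was filled to 48.6% after DHT and 46.9% in untreated cells. The other wide DHT peaks, chr11:2610105-2611292 (1188 bp, score 80.3) and chr11:2682841-2684007 (1167 bp, score 70.6), met no untreated peak. The other wide untreated peaks were chr11:2706247-2707238 (992 bp, score 87.3) and chr11:2727466-2728323 (858 bp, score 119), and DHT peaks covered 28.4% and 53.0% of them. The longest stretch with no peak of either library was 44954 bp, chr11:2621104-2666057.

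**Figure D5:**
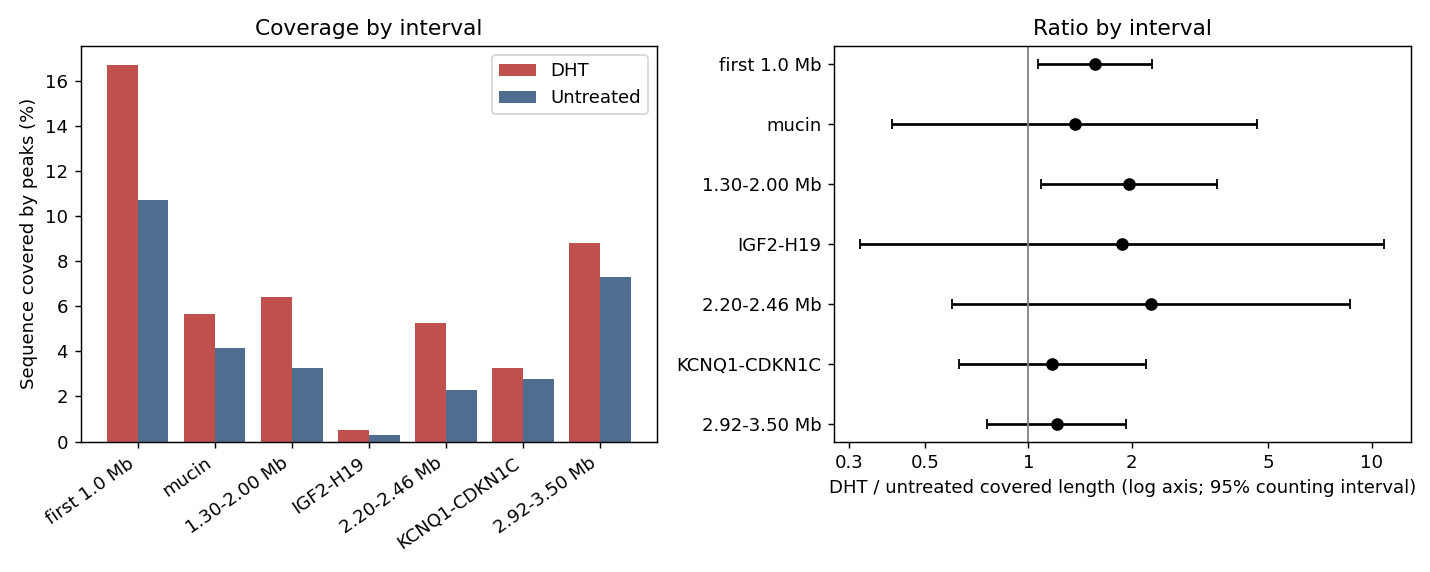
Left, percentage of each of 7 intervals covered by peaks after DHT (left bar) and in untreated cells (right bar). Right, the ratio of covered length, DHT over untreated, on a log axis with 95% counting intervals, which exclude 1 for the first 1.0 Mb and for 1.3 to 2.0 Mb only.

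Between the named intervals the mark returned. From 1.3 to 2.0 Mb, 6.39% was covered after DHT and 3.25% in untreated cells. Between MUC5B and H19 the table lists 18 protein-coding genes, from TOLLIP (an adaptor of innate immune signalling) to MRPL23 (a mitochondrial ribosomal protein). The ratio was 1.96 (1.09 to 3.55). Peaks of at least 2 kb numbered 6 of 41 after DHT and 0 of 33 in untreated cells. Over all nuclear chromosomes they numbered 2700 of 131798 after DHT and 3036 of 117564 in untreated cells, so 0 of 33 says little. Block chr11:1772585-1783138 was covered over 10397 bp after DHT, 98.5% of its length, and 5007 bp in untreated cells. The longest block, chr11:1483159-1501859, was covered over 7545 bp after DHT and 2910 bp in untreated cells. The highest-scoring untreated peak here, chr11:1307466-1308510 (1045 bp, score 394), was covered over 23.3% by a DHT peak. The same interval held an empty stretch of 130473 bp, chr11:1841515-1971987.

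From 2.2 to 2.46 Mb, 5.26% was covered after DHT and 2.31% in untreated cells, a ratio of 2.28 (0.599 to 8.67). The highest-scoring DHT peak of the whole 3.5 Mb lay here, at chr11:2423196-2425708 (2513 bp, score 690), and 85.8% of it was covered by an untreated peak. The longest block, chr11:2338832-2350733, was thinly covered, over 1103 bp after DHT and 210 bp in untreated cells. The block of that peak, chr11:2414149-2425708, was covered over 7301 bp after DHT and 4207 bp in untreated cells. No peak of either library lay in chr11:2228906-2306638, a stretch of 77733 bp. ASCL2, CD81 and TSSC4 are among the 6 protein-coding genes listed between TH and KCNQ1.

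From 2.92 to 3.5 Mb, 8.82% was covered after DHT and 7.30% in untreated cells, a ratio of 1.21 (0.758 to 1.93). The longest block of all, chr11:2964669-3008810, had less sequence covered after DHT, 7736 bp against 9293 bp in untreated cells. Blocks chr11:3056649-3069171 and chr11:3376601-3399217 also had less, 2682 bp after DHT against 4293 bp in untreated cells for the first of them. For the other it was 4716 bp after DHT against 6899 bp in untreated cells. Block chr11:3109457-3131754 had more, 10974 bp after DHT against 7028 bp in untreated cells. Among the matching pairs of this interval the DHT peak was the wider in 11 of 29. Here DHT peaks were thus not mostly the wider. The highest-scoring DHT peak, chr11:2985457-2985908 (452 bp, score 440), was covered over 96.0% by untreated peaks. No peak of either library lay in chr11:3213669-3359834, a stretch of 146166 bp.

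Other gene-dense chromosome ends gave similar ratios. The first 3.5 Mb of chromosome 16 was covered to 12.8% after DHT and 9.07% in untreated cells, a ratio of 1.41 (1.15 to 1.73). For chromosome 19 it was 12.0% after DHT and 7.91% in untreated cells, a ratio of 1.51 (1.21 to 1.89). The 11p15.5 ratio of 1.52 lay within both intervals, at a lower coverage in each library. The first 1.0 Mb of chromosome 11 was more covered than that of chromosome 16, at 14.02% after DHT and 9.92% in untreated cells, or of chromosome 19, at 10.5% after DHT and 6.11% in untreated cells. Matching DHT peaks were the wider in 57.1% of 168 pairs (49.6% to 64.4%) on chromosome 16 and in 76.7% of 133 pairs (68.8% to 83.1%) on chromosome 19. For the 3.5 Mb of chromosome 11 this was 58.6% of 116 pairs (49.5% to 67.2%). The excess after DHT was thus also present at these ends.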

How the data were processed

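The deposited files are peak lists, 1 per ChIP library, giving position, name and score. The peak names carry the name of the caller MACS, and the file names that of the build hg19. Neither its version and settings nor the control, aligner or number of reads is given in the sources used here, so depth is unknown. The scale of the deposited score is not stated. It starts at 50 in both lists and served here for ranking and filtering only. Calling short peaks over a broad mark can split 1 domain into several peaks.

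Covered lengths, overlaps at a minimum of 1 bp, joined blocks and windows were computed with NumPy 2.4.6 and pandas 2.3.3 under Python 3.11.15, and overlaps were checked with bedtools 2.31.1. Intervals at 95% are Wilson for shares, exact binomial for numbers of peaks, and for covered lengths take squared peak widths as Poisson variance on a log scale. A test with 2000 simulated peaks gave back 10 of 10 known answers. No p-value was computed, as each condition has 1 library. The text names windows past 1.5-fold, the 5 most covered windows, the 3 widest and 3 highest-scoring peaks of the 3.5 Mb and of the 4 intervals compared, each interval's longest block and empty stretch, and other peaks, blocks or stretches chosen after their values were seen. The members, intervals and lists were chosen with earlier results of these data known. Alternatives were the higher-scoring 50% of each list, lists joined at 1 kb or 5 kb, lists of the same covered length, a score of at least 100, stricter overlap, and other windows and folds. Gene order and promoters came from RefSeq tables of GRCh38.p14, and no gene was placed on hg19.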

Additional observations from a re-analysis of the deposited data

How the results depend on the processing

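The covered-length ratio of the 3.5 Mb, 1.52, was 1.47 to 1.87 under all 6 alternatives run, and that of the first 1.0 Mb, 1.56, was 1.497 to 1.82 under all 5. Joined at 5 kb, their counting intervals included 1 (0.960 to 2.35 and 0.906 to 2.90), as did that of the first 1.0 Mb joined at 1 kb (0.995 to 2.25). A score of at least 100 and the removal of the first 1.0 Mb were chosen after seeing the data. Scores rank peaks within 1 list only, so a limit of 100 may not cut both lists alike. The covered-length ratio over all nuclear chromosomes was not computed under these alternatives. A higher ratio under any of them therefore cannot be called particular to this end. The ratio in the KCNQ1-CDKN1C interval, 1.17, became 0.776 in the higher-scoring 50% and 0.866 joined at 5 kb. In the IGF2-H19 interval no ratio could be formed from the higher-scoring 50% or at a score of at least 100, which left no untreated peak. Joined at 5 kb it became 6.58. The 7 windows higher after DHT became 1 at 2-fold, where 4.15% of windows were higher over the genome, and 3 of 7 qualifying windows at a score of at least 100, where 37.6% were. Joined at 5 kb, 7 of 19 windows were higher, or 36.8%, against 30.5% over the genome, and 4 of these are among the 7 of the lists as deposited. In the higher-scoring 50%, 6 of 8 windows were higher, or 75%, against 25.8% over the genome, and 3 of the 6 are among those 7. At 5 kb and at a score of at least 100 the excess over the genome was small. No window was lower after DHT by the fold under any alternative, among 7 to 19 that qualified. Over the genome 0.592% (at 2-fold) to 15.8% (joined at 5 kb) of qualifying windows were lower. With so few windows at the chromosome's end, a count of 0 says little. The peak-number ratio, 1.26, was 1.75 at a score of at least 100. The share of DHT peaks overlapped, 52.9%, was 43.3% when 50% of the peak had to be covered and 43.6% at a score of at least 100. The share of untreated peaks overlapped, 64.6%, was 72.3% joined at 5 kb and 74.6% at a score of at least 100. The causes were not tested. No paired analysis was possible because each condition has 1 library. With no read numbers, depth cannot be separated from the condition as a source of any difference.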

Other observations

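In the 3.5 Mb, 5 windows held DHT peaks and no untreated peak. They began at 1100001, 1600001, 2000001, 3200001 and 3400001. The most covered, from 1600001 to 1700000, held 6 DHT peaks over 2334 bp with a highest score of 102, and the other windows held 1 peak each, over 273 to 514 bp. No window had the opposite pattern. Over the genome, 2613 windows held DHT peaks alone and 2182 untreated peaks alone, of 19726 with a peak.

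Single peaks that spanned several peaks of the other library occurred in both directions. Over the 3.5 Mb, 5 of 263 DHT peaks each overlapped at least 2 untreated peaks, and 10 of 209 untreated peaks each overlapped at least 2 DHT peaks. In the first 1.0 Mb the counts were 1 for DHT and 5 for untreated peaks. On chromosome 11 beyond 3.5 Mb they were 66 of 6200 DHT peaks and 191 of 5530 untreated peaks, so more untreated peaks did so there too. In the first 3.5 Mb of chromosome 16 they were 10 for DHT and 9 for untreated peaks, and for chromosome 19 they were 9 and 3. Such peaks were not counted over the genome.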
